A study of Mus musculus with 18 samples.

Results

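The genes described here encode the mitochondrial carriers, the SLC25 family of membrane proteins, together with the uncoupling proteins Ucp1 and Ucp3, which belong to the same family under other symbols. They were taken by name: every gene whose platform symbol begins with Slc25a, plus Ucp1 and Ucp3, with 1 probe set per gene, that of the highest mean signal over all arrays. Carriers under other symbols, such as Ucp2, Mtch1 and Mtch2, were not taken by this rule. This gave 46 genes of 18193 measured. Of the 46 carriers, 38 passed the filter on low signal that left 10916 genes for testing.

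Transcript levels were measured with Affymetrix oligonucleotide arrays in ventricular myocardium, 1 array per sample. The samples were 5 from ob/ob mice given recombinant mouse leptin through an osmotic mini-pump, 5 from ob/ob mice on calorie restriction to the food intake of the leptin treated mice, 4 from ob/ob mice fed ad libitum and 4 from C57Bl/6J wild type mice. All ob/ob mice carried the mutation on a C57Bl/6J background, so that leptin was absent unless it was supplied by the pump. They were 6 months old when the groups were formed, and the feeding regimens or pump lasted 1 month. The labels of the wild type samples give an age of 6 months, whereas the series design gives a range of 6 to 8 months. By its title, the study is about myocardial steatosis, the build-up of fat in heart muscle.

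Mitochondrial carriers sit in the inner membrane and move metabolites that cannot cross it: nucleotides, phosphate, acylcarnitines, keto acids, amino acids, coenzymes and metal ions. A heart muscle cell depends on them to bring fatty acid fuel and ADP into the matrix and to send ATP out. Ucp3 is a carrier of heart and skeletal muscle whose gene responds to fatty acids through the receptor PPAR-alpha, whereas Ucp1 is the heat-producing uncoupling protein of brown fat.

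The arrays were alike in signal, with medians of 22.3 to 31.8 and pairwise correlations of log2 signal of 0.943 to 0.971 across probe sets. All 12 ventricular cardiomyocyte markers passed the filter, and none was called in any of the 6 comparisons of the groups. As a list they were shifted against wild type hearts. Their median log2 difference was 0.18 in ad libitum, 0.22 in leptin treated and 0.26 in restricted hearts, against 0.0012 to 0.0041 for all genes tested. A gene was called where limma's test gave a Benjamini-Hochberg adjusted p under 0.05 over all genes tested, and differences are given as log2 of the first group over the second. Atrial transcripts were uneven. The summed signal of the 10 atrial markers was 2411 to 3760 in leptin treated, 2128 to 16940 in restricted, 1305 to 2993 in ad libitum and 2053 to 3998 in wild type hearts, with the highest sums in restricted replicates 2 and 3.

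Across the 4 groups, 11 of 38 carriers (28.9%) differed by limma's moderated F-test, where 17% of all genes tested did. Pairwise, 13 carriers were called in at least 1 of the 6 comparisons (34.2%, where 24.2% of all genes tested were) and 25 in none. Of the 30 calls, 27 fell in a comparison with the restricted group (90%), as did 4447 of the 4604 calls over all genes (96.6%), so that this is the pattern of the whole series. In 24 of the 30 calls (80%) the signals of the 2 groups did not overlap, where 73.7% of the calls over all genes had no overlap. The roles of the called carriers were mixed. They took in the uncoupling protein Ucp3, the acylcarnitine carrier Slc25a20, both iron carriers, both aspartate/glutamate carriers, 1 carrier of adenine nucleotides (Slc25a25), 5 carriers of nucleotides and coenzymes, and Slc25a34. None of the 3 tested carriers of dicarboxylates, oxoglutarate and citrate was called.

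**Figure D1:**
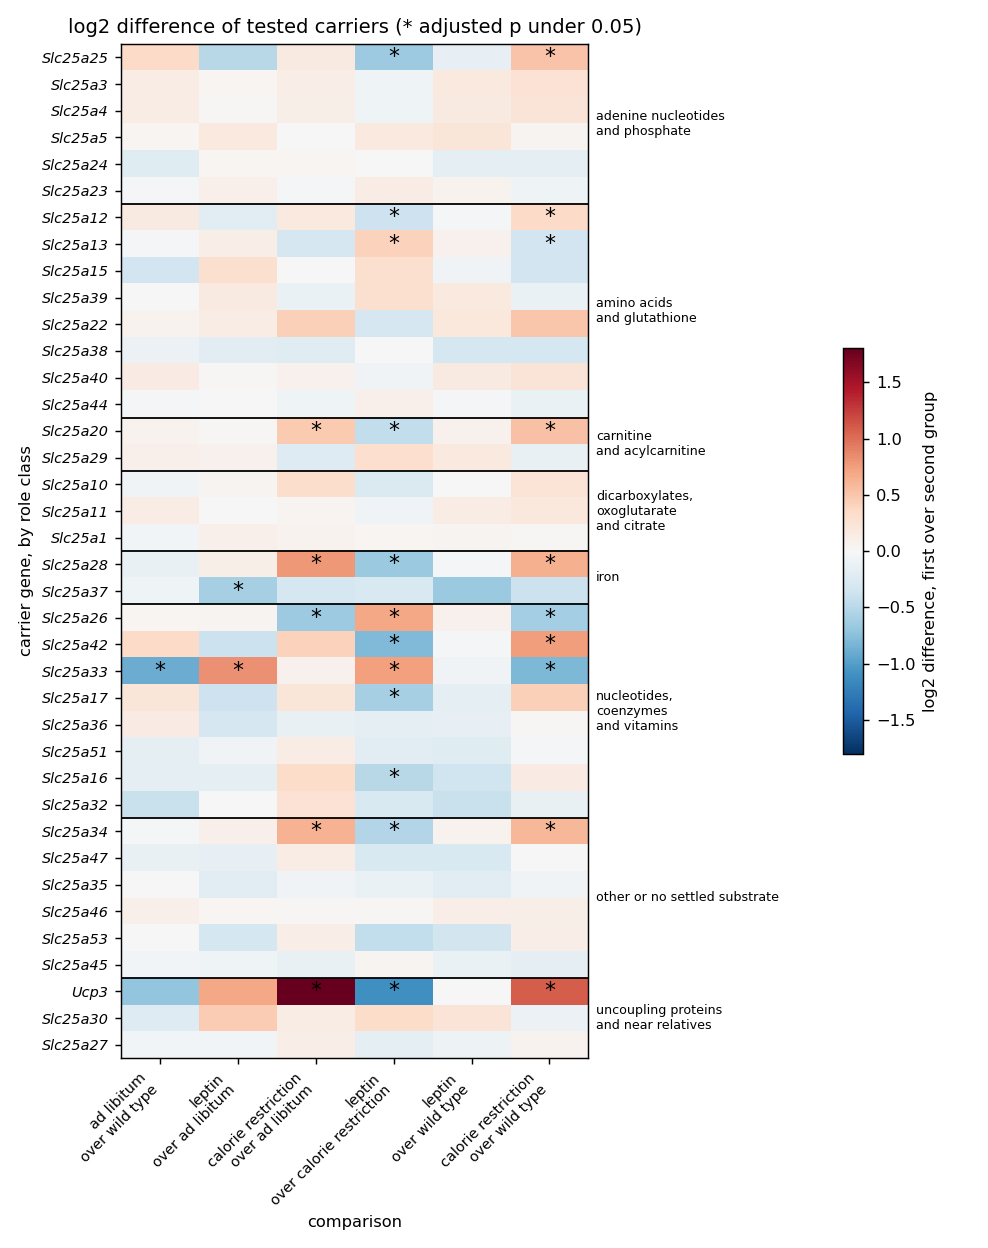
Colour gives the log2 difference (first group over second) of the 38 tested carriers, in rows by role class, for the 6 comparisons in columns, with an asterisk where the adjusted p was under 0.05. Of the 30 asterisks, 27 are in the columns that hold the calorie restricted group, where 96.6% of the calls over all genes also lie, and the column of leptin over wild type, with 2 calls over all genes, has none.

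Calorie restricted hearts had more transcript of 4 carriers and less of 1 than ad libitum ob/ob hearts, 5 of 38 (13.2%), where 7.95% of all genes tested were called, 3.53% higher and 4.42% lower. The comparison asks what lowered food intake does without leptin. The 4 higher ones were Ucp3, the acylcarnitine carrier Slc25a20, the iron carrier Slc25a28 and Slc25a34, a family member whose substrate is not settled. The lower one was Slc25a26, which brings the methyl donor S-adenosylmethionine into the matrix. The median difference of the tested carriers was 0.09, against -0.0038 for all genes tested.

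Ucp3 had the largest difference of the carriers here. Its signal was 391, 253, 431, 332 and 169.6 on the 5 leptin treated arrays, 543, 729, 628, 849.9 and 555 on the 5 restricted arrays, 196, 158, 215 and 168 on the 4 ad libitum arrays and 367, 295, 276 and 278 on the 4 wild type arrays. The restricted hearts lay above every other array, and the leptin treated hearts ranged from the ad libitum level to above the wild type one. The log2 difference of restricted over ad libitum hearts was 1.80 ± 0.21 (SE, adjusted p = 7.78e-05). Its other probe set, which also passed the filter, gave 2.19, with mean signals of 614 in restricted and 131 in ad libitum hearts.

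Slc25a20 exchanges acylcarnitines for free carnitine across the inner membrane and is the step through which long-chain fatty acids enter the matrix. Its signal was 1648, 1854, 1584, 1807 and 1509 on the 5 leptin treated arrays, 2195, 2145, 2106, 2482 and 2555 on the 5 restricted arrays, 1863, 1660.4, 1744 and 1389.9 on the 4 ad libitum arrays and 1760.5, 1418, 1532 and 1653 on the 4 wild type arrays. Restricted hearts were above all other groups without overlap, and the other 3 groups overlapped one another. The difference over ad libitum hearts was 0.47 ± 0.10 (SE, adjusted p = 0.00754), and the other probe set gave 0.33.

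Slc25a28 encodes mitoferrin 2, which carries iron into mitochondria of non-erythroid cells. Its signal was 259, 239, 169.6, 175 and 184 on the 5 leptin treated arrays, 243, 340.2, 369.9, 322 and 364 on the 5 restricted arrays, 174, 196, 179.9 and 199 on the 4 ad libitum arrays and 191, 183, 231 and 221 on the 4 wild type arrays. Every restricted array exceeded every ad libitum and wild type array, and restricted replicate 1 fell within the range of the leptin treated hearts. The difference over ad libitum hearts was 0.78 ± 0.14 (SE, adjusted p = 0.00215).

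Slc25a34 is a family member of muscle and other tissues with no settled substrate. Its signal was 1059.7, 1104, 866, 722 and 592 on the 5 leptin treated arrays, 1086, 1367, 1149.6, 1345 and 1213 on the 5 restricted arrays, 795, 769, 788 and 838 on the 4 ad libitum arrays and 841, 749, 811 and 848 on the 4 wild type arrays. The leptin treated hearts were the most spread group, with replicates 1 and 2 near the restricted level and replicate 5 below all the others. The difference of restricted over ad libitum hearts was 0.62 ± 0.14 (SE, adjusted p = 0.0119). It was not called without restricted replicates 2 and 3, the arrays with the most atrial transcript, nor with the atrial marker level as a covariate. Its values were then 0.60 (adjusted p = 0.0587) and 0.61 (adjusted p = 0.102).

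Slc25a26 moved the other way. Its signal was 224, 266, 179, 232 and 208 on the 5 leptin treated arrays, 151, 104, 147, 143 and 128 on the 5 restricted arrays, 206, 211, 219.5 and 217 on the 4 ad libitum arrays and 229.5, 222, 184 and 198 on the 4 wild type arrays. All 5 restricted hearts lay below all other arrays. The difference over ad libitum hearts was -0.65 ± 0.12 (SE, adjusted p = 0.00212), whereas a weaker second probe set of the gene had the same sign with a value of -0.20 and an unadjusted p of 0.168.

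**Figure D2:**
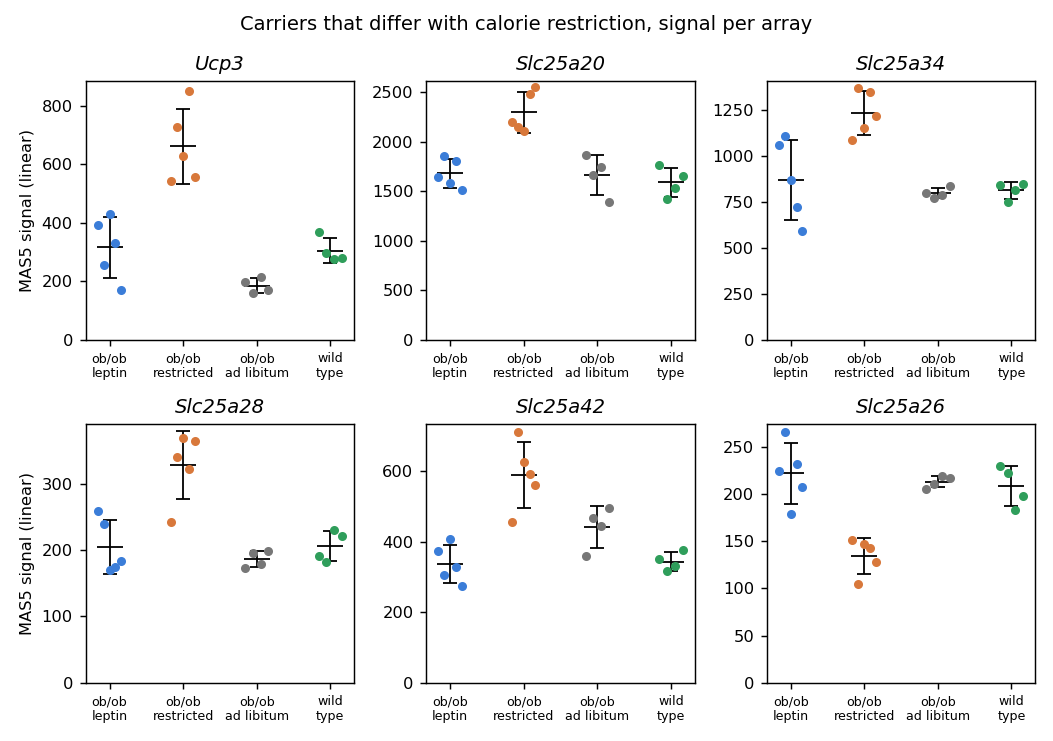
MAS5 signal (linear scale) per array of 6 carriers in leptin treated, calorie restricted and ad libitum ob/ob hearts and wild type hearts, with the group mean and SD as bar and whiskers. Restricted hearts stand above the other groups for Ucp3 and Slc25a20 and below them for Slc25a26.

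The promoter sequences of the 4 carriers called higher in restricted over ad libitum hearts are shown. That of Slc25a33 is shown because its pattern, described further on, was a different one. Each is the stretch of 250 bases before the gene's start, 5′ to 3′ on the strand of the gene, from RefSeq (build GRCm38.p6). Ucp3 lies at chr7:100472741-100472990 (plus strand), Slc25a20 at chr9:108661886-108662135 (plus strand), Slc25a28 at chr19:43674882-43675131 (minus strand), Slc25a34 at chr4:141623835-141624084 (minus strand) and Slc25a33 at chr4:149774268-149774517 (minus strand). Capitals mark the GC box (GGGCGG), the CCAAT box (CCAAT) and the E-box (CACGTG) in either orientation, none of which overlap in these windows.
Ucp3: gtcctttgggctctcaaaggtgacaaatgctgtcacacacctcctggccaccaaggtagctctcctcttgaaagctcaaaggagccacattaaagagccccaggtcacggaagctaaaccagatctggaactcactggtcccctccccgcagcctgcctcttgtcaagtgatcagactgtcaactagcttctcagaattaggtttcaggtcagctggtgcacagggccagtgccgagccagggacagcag
Slc25a20: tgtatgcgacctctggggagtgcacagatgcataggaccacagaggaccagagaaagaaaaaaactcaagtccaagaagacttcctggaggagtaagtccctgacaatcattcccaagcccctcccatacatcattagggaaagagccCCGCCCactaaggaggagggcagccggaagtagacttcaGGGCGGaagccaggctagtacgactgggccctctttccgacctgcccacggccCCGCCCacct
Slc25a28: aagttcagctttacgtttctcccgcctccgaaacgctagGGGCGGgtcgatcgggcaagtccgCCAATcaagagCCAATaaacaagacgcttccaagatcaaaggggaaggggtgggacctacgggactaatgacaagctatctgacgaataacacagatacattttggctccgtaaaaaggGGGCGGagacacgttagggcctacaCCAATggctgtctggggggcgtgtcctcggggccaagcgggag
Slc25a34: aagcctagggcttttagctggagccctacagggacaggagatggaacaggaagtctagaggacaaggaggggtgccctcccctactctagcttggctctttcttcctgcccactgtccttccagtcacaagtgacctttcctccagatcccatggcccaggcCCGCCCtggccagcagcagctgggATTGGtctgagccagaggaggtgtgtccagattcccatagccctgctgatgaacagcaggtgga
Slc25a33: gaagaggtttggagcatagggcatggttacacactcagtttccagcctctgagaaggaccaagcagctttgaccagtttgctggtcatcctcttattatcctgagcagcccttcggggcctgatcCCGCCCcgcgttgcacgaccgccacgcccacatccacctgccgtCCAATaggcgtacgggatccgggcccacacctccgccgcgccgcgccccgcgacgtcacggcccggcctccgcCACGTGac

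The Ucp3 window held none of these 3 motifs. Slc25a20 held 3 GC boxes, Slc25a28 had 2 GC boxes and 3 CCAAT boxes, Slc25a34 had 1 of each, and Slc25a33 had 1 GC box, 1 CCAAT box and 1 E-box. Of all 32851 promoter windows of this length, 32.7% held a GC box, 33.8% a CCAAT box and 6.02% an E-box. Of the 45 windows of the carriers, 32 held a GC box, 20 a CCAAT box and 8 an E-box. By gene, among the 36 of the 46 carriers with a listed promoter, these were 25, 17 and 7. A gene can have several windows, so counts of genes cannot be set against the shares of windows. A direct repeat of the half-site AGGNCA with 1 base between the repeats (DR1), the form PPAR-alpha is known to bind, was searched on both strands as well. It was in 0.338% of all windows and in none of the 45 windows of the carriers, which says only that these letters are not in these stretches. The TATA box (TATAAA) was in 12.4% of all windows and in 1 of the 45 windows of the carriers, that of Slc25a18.

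The comparison of leptin treated with calorie restricted hearts sets 2 groups of matched food intake against each other, and it also tests whether the responses to leptin and to restriction differed. Of the 38 carriers, 12 (31.6%) were called, 3 higher and 9 lower with leptin, where 17.9% of all genes tested were called, 10.4% higher and 7.5% lower. The median difference of the carriers was -0.10, against -0.01 for all genes tested. All 5 carriers called in restricted over ad libitum hearts were called here with the opposite sign: Ucp3 at -1.11 ± 0.20 (SE, adjusted p = 0.00117), Slc25a28 at -0.67, Slc25a34 at -0.53, Slc25a20 at -0.45 and Slc25a26 at 0.70. Both comparisons use the restricted arrays, so their errors are shared.

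Of the other 7 carriers called here, 4 were those of coenzymes and nucleotides. Slc25a42, which imports coenzyme A, had signals of 374, 305, 409, 329 and 273 on the 5 leptin treated arrays, 455, 711, 627, 593 and 561 on the 5 restricted arrays, 359, 467, 444 and 496 on the 4 ad libitum arrays and 351, 316, 329.9 and 376 on the 4 wild type arrays. Restricted hearts were above all leptin treated and wild type hearts, while the ad libitum hearts lay between and overlapped them. The difference of leptin over restricted hearts was -0.79 ± 0.13 (SE, adjusted p = 0.000382). Restricted over ad libitum hearts gave 0.41 (95% interval 0.13 to 0.69, adjusted p = 0.0699), which did not pass the test.

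Slc25a16, a carrier linked to coenzyme A, and Slc25a17, which carries coenzymes across the peroxisomal membrane, were lower with leptin than with restriction. Slc25a16 had signals of 115, 145, 182, 178 and 179.6 in leptin treated and 258, 237, 245, 162 and 243 in restricted hearts, a difference of -0.51 ± 0.16 (SE, adjusted p = 0.0343). Slc25a17 had 44.5, 29.7, 60.7, 27.4 and 50.3 in leptin treated and 63.9, 65.5, 58.9, 60.5 and 73.2 in restricted hearts, a difference of -0.59 ± 0.16 (SE, adjusted p = 0.0171). The groups overlapped for both genes. The call of Slc25a16 was lost on leaving out any of 6 arrays (restricted replicates 1, 2, 3 and 5 and leptin replicates 1 and 2), and that of Slc25a17 without leptin replicate 2, where the adjusted p was 0.0512.

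The calcium-regulated carrier of ATP-magnesium and phosphate, Slc25a25, had signals of 54.3, 64.4, 76.7, 71.5 and 76.2 on the 5 leptin treated arrays, 127, 115, 115, 103 and 94.1 on the 5 restricted arrays, 116, 102, 81.4 and 96.9 on the 4 ad libitum arrays and 84.1, 66.2, 84.8 and 70.6 on the 4 wild type arrays. Leptin treated hearts were below every restricted and every ad libitum heart and overlapped the wild type hearts. The difference of leptin over restricted hearts was -0.66 ± 0.11 (SE, adjusted p = 0.000762) and that of leptin over ad libitum hearts -0.50 ± 0.12 (SE, adjusted p = 0.0543), which did not pass. The other probe set of Slc25a25 above the filter gave -0.47 for leptin over restricted hearts, with an unadjusted p of 0.136. The major carriers of ADP, ATP and phosphate were not called. The adenine nucleotide translocators Slc25a4 and Slc25a5 had differences of leptin over restricted hearts of -0.08 (95% interval -0.24 to 0.08, adjusted p = 0.505) and 0.17 (95% interval -0.0046 to 0.35, adjusted p = 0.173), and the phosphate carrier Slc25a3 had -0.08 (95% interval -0.25 to 0.09, adjusted p = 0.544).

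The aspartate/glutamate carriers, which take reducing equivalents of the cytosol into the matrix as part of the malate-aspartate shuttle, went in opposite directions. Slc25a12 (aralar), the form of heart and skeletal muscle, had signals of 1622, 1431, 1681, 1755 and 1466 on the 5 leptin treated arrays, 1887, 2045, 1979.8, 2182 and 2151 on the 5 restricted arrays, 1686, 1789, 1989.7 and 1772 on the 4 ad libitum arrays and 1612, 1605, 1577 and 1662 on the 4 wild type arrays. Slc25a13 (citrin), the form best known from liver, had 548, 543, 608, 412 and 499.8 on the 5 leptin treated arrays, 353, 434, 369.9, 378 and 400.1 on the 5 restricted arrays, 461, 418, 505 and 532 on the 4 ad libitum arrays and 468, 488, 485 and 525 on the 4 wild type arrays. Restricted hearts were on average highest for Slc25a12, where they overlapped only the ad libitum hearts, and lowest for Slc25a13, where they overlapped the ad libitum and leptin treated hearts. Leptin over restricted hearts gave -0.37 ± 0.07 (SE, adjusted p = 0.00221) for Slc25a12 and 0.42 ± 0.10 (SE, adjusted p = 0.00637) for Slc25a13. Restricted over ad libitum hearts gave 0.18 and -0.30, and neither passed the test (adjusted p = 0.177 and 0.0844).

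**Figure D3:**
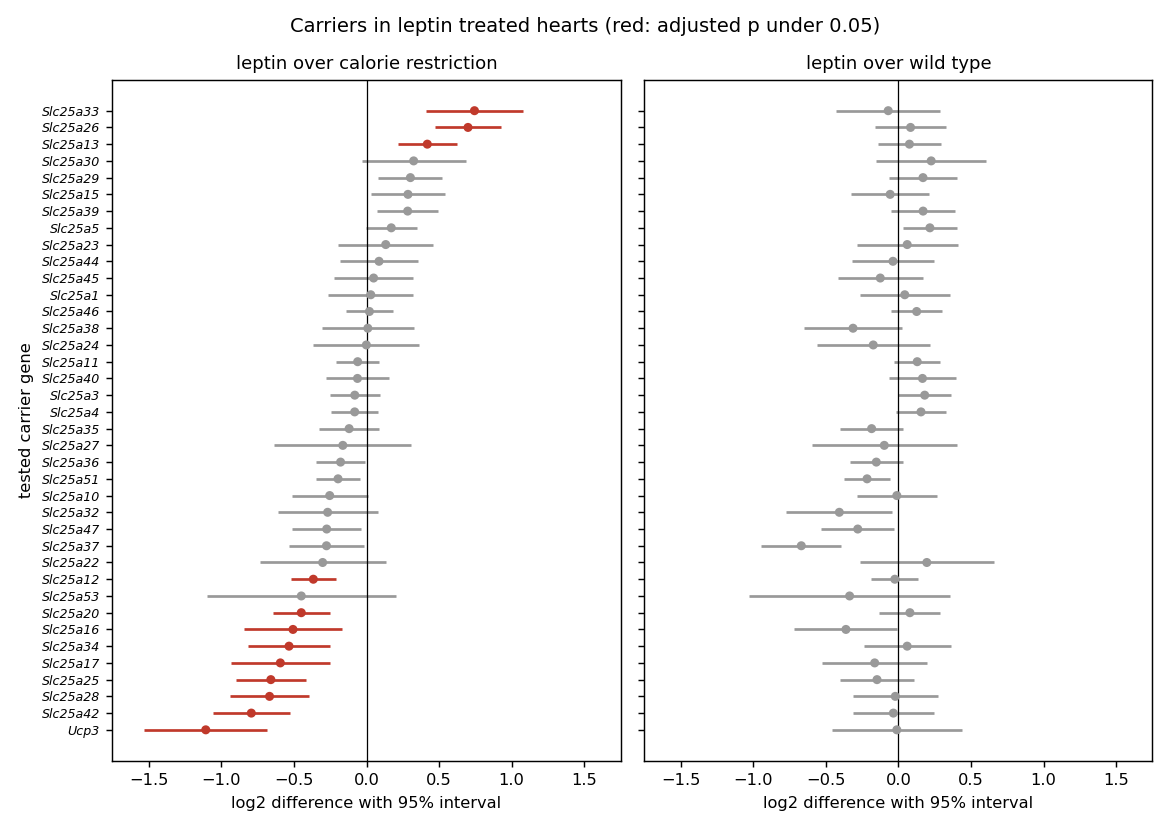
Points give the log2 difference of each of the 38 tested carriers with its 95% interval, for leptin over calorie restricted hearts (left) and leptin over wild type hearts (right), sorted by the left panel and red where called. The left panel has 12 red carriers from Ucp3 at -1.11 to Slc25a33 at 0.74, and the right panel has none.

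Slc25a33 followed neither of these patterns. It carries pyrimidine nucleotides into mitochondria and is known to respond to insulin-like growth factor signalling. Its signal was 443, 426, 418, 279 and 219 on the 5 leptin treated arrays, 195, 189.7, 185, 212 and 240.5 on the 5 restricted arrays, 215, 174, 186 and 196 on the 4 ad libitum arrays and 325, 345, 371 and 412 on the 4 wild type arrays. The ad libitum and restricted hearts, both without leptin, were at one low level, the wild type hearts were all higher, and leptin replicates 1 to 3 were above the wild type range while replicates 4 and 5 were below it. The leptin treated hearts did not overlap the ad libitum ones, although replicate 5 fell within the restricted range. It was lower in ad libitum than in wild type hearts at -0.89 ± 0.18 (SE, adjusted p = 0.034) and lower in restricted than in wild type hearts at -0.81 ± 0.17 (SE, adjusted p = 0.00348). It was higher in leptin treated than in ad libitum hearts at 0.82 ± 0.17 (SE, adjusted p = 0.024) and higher than in restricted hearts at 0.74 ± 0.16 (SE, adjusted p = 0.00379). Restricted over ad libitum hearts gave 0.08 (95% interval -0.28 to 0.44, adjusted p = 0.841). The call against wild type in ad libitum hearts was lost on leaving out any 1 of 7 of the 8 arrays, all but ad libitum replicate 1, with values of -0.95 to -0.83 and adjusted p up to 0.107. The call of leptin over ad libitum hearts was lost without ad libitum replicate 2, 3 or 4 or leptin replicate 1 or 2, with adjusted p up to 0.0775. The calls against restricted hearts and of restricted against wild type hearts held whichever array was left out.

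Of the 38 carriers, Slc25a33 was the only one called in ad libitum over wild type hearts (2.63%, lower), where 0.376% of all genes tested were called, 0.156% higher and 0.22% lower. Both leptin deficiency and the obesity it brings separate these groups. The carriers with the next smallest p were Ucp3 at -0.71 ± 0.22 (SE, adjusted p = 0.192), Slc25a25 at 0.35 ± 0.13 (SE, adjusted p = 0.271) and the ornithine carrier Slc25a15 at -0.34 ± 0.13 (SE, adjusted p = 0.321), none of which passed. The Ucp3 signals of ad libitum hearts were all below those of wild type hearts. The median difference of the carriers was -0.03, against 0.0032 for all genes tested.

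In leptin treated over ad libitum hearts, 2 of 38 carriers were called (5.26%), Slc25a33 higher and Slc25a37 lower, where 1.04% of all genes tested were called, 0.632% higher and 0.412% lower. Slc25a37 encodes mitoferrin 1, which supplies iron for heme synthesis and is most abundant in developing red cells. Its signal was 79.3, 55.9, 58.7, 65.5 and 53.7 on the 5 leptin treated arrays, 92.8, 78.7, 70.0, 68.4 and 73.3 on the 5 restricted arrays, 79.6, 102, 93.9 and 113 on the 4 ad libitum arrays and 97.0, 85.0, 125 and 103 on the 4 wild type arrays. Leptin treated hearts were lowest on average. They overlapped the restricted hearts but not the ad libitum ones, with replicate 1 just below the lowest of these. The difference of leptin over ad libitum hearts was -0.60 ± 0.13 (SE, adjusted p = 0.0335), and it was no longer called without ad libitum replicate 2, 3 or 4 or leptin replicate 2, 3 or 5 (adjusted p up to 0.108). The remaining carriers among the smallest p were Slc25a25, given above, and the pyrimidine nucleotide carrier Slc25a36 at -0.31 ± 0.09 (SE, adjusted p = 0.0914). Ucp3 had 0.70 ± 0.21 (SE, adjusted p = 0.121) and passed only without leptin replicate 5 (0.90, adjusted p = 0.019).

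A red cell gene was also low in leptin treated hearts and in most restricted hearts. Alas2, the erythroid enzyme that starts heme synthesis, had signals of 135, 82.2, 43.7, 112 and 44.1 on the 5 leptin treated arrays, 241, 24.9, 73.3, 76.1 and 52.5 on the 5 restricted arrays, 142, 161, 202 and 161 on the 4 ad libitum arrays and 198, 184, 235 and 229 on the 4 wild type arrays. Every leptin treated heart, and every restricted heart but replicate 1, lay below all ad libitum and wild type hearts. Of the 7 erythroid markers listed, 3 were measured, and their summed signal was 72.1 to 159.8 in leptin treated, 51.2 to 283 in restricted, 161 to 247 in ad libitum and 224 to 299 in wild type hearts. This sum mostly restates Alas2, with mean signals of 83.5 in leptin treated and 166 in ad libitum hearts. The means were 15.0 and 18.5 for Hba-a1 and 18.9 and 19.6 for Slc4a1. Alas2 was the only one of these above the filter, and its difference of leptin over ad libitum hearts was -1.07 (adjusted p = 0.238). By limma's test it was called only in restricted over wild type hearts, at -1.48 (adjusted p = 0.0266). Leptin over restricted hearts gave 0.07 (adjusted p = 0.865), so the low level was not particular to leptin. The part of Alas2 in the Slc25a37 result was not tested. Fewer cells of a type and less RNA per cell cannot be told apart in tissue RNA.

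**Figure D4:**
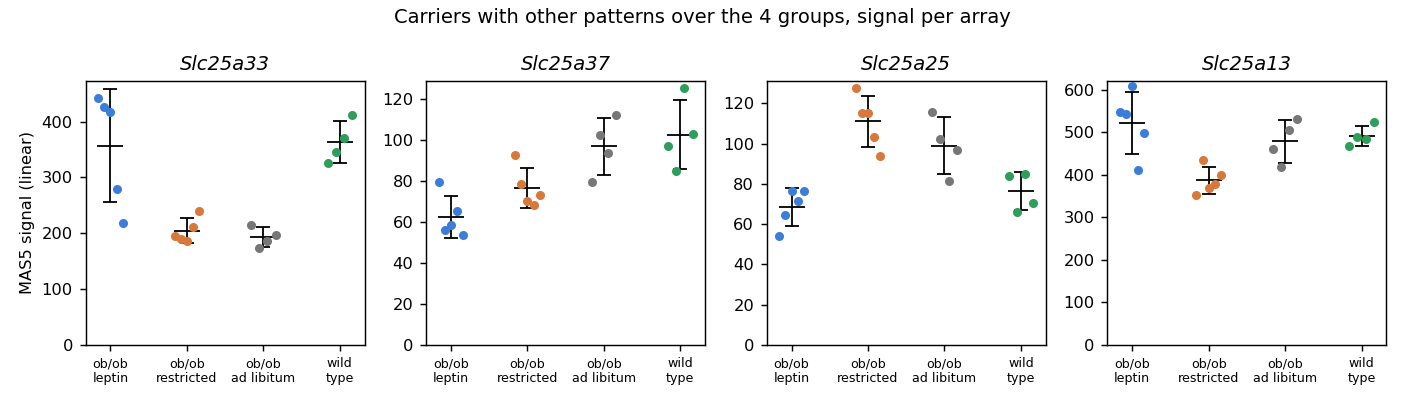
MAS5 signal (linear scale) per array of 4 carriers in leptin treated, calorie restricted and ad libitum ob/ob hearts and wild type hearts, with the group mean and SD as bar and whiskers. Slc25a33 is low in both ob/ob groups without leptin, Slc25a37 and Slc25a25 are lowest on average in the leptin treated hearts, and Slc25a13 is lowest in the restricted hearts.

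Restricted hearts differed from wild type hearts in 10 of 38 carriers (26.3%), 7 higher and 3 lower, where 14.9% of all genes tested were called, 6.71% higher and 8.2% lower. The higher ones were Ucp3 at 1.10 ± 0.21 (SE, adjusted p = 0.00223), Slc25a42 at 0.76 ± 0.13 (SE, adjusted p = 0.00112), Slc25a28 at 0.65, Slc25a34 at 0.59, Slc25a20 at 0.53, Slc25a25 at 0.51 and Slc25a12 at 0.34. The lower ones were Slc25a33, Slc25a26 at -0.62 and Slc25a13 at -0.34 (adjusted p = 0.0324). In all 10 the signals of the groups did not overlap, where 73.7% of the calls over all genes and all comparisons had no overlap. The share over all genes in this comparison alone was not counted. The call of Slc25a13 was lost without restricted replicate 1, 3 or 4 or wild type replicate 2, 3 or 4, and those of the other 9 held whichever array was left out. With the mean of all probe sets of a gene, Slc25a25 had 0.21 (adjusted p = 0.389) and Slc25a12 had 0.26 (adjusted p = 0.115), so that neither was called. Without restricted replicates 2 and 3, Slc25a25 had 0.47 (adjusted p = 0.0522). Slc25a3 and Slc25a4 came close to the threshold at 0.26 ± 0.09 (SE, adjusted p = 0.0514) and 0.24 ± 0.08 (SE, adjusted p = 0.0565). The 12 ventricular cardiomyocyte markers had a median difference of 0.26 in this comparison, against 0.0012 for all genes tested. The shift was not particular to restriction, with medians of 0.18 in ad libitum and 0.22 in leptin treated over wild type hearts. Their summed signal was 77810 to 102900 in restricted, 74910 to 88340 in ad libitum and 68020 to 74130 in wild type hearts. Both of these ob/ob groups lay above the wild type hearts without overlap, whereas the leptin treated hearts (67120 to 92760) overlapped them. The part of these markers in the carrier results was not tested.

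None of the 38 carriers was called by limma in leptin treated over wild type hearts, where 0.0183% of all genes tested were called (2 genes, 0.00916% higher and 0.00916% lower), and 6 carriers (15.8%) had an unadjusted p under 0.05, where 11.1% of all genes tested had one. The carriers with the smallest p were Slc25a37 at -0.67 ± 0.13 (SE, adjusted p = 0.0968), the NAD carrier Slc25a51 at -0.22 ± 0.08 (SE, adjusted p = 0.333), Slc25a5 at 0.22 ± 0.09 (SE, adjusted p = 0.398) and Slc25a47, a family member best known from liver, at -0.28 ± 0.12 (SE, adjusted p = 0.413). For Ucp3 the difference was -0.01 (95% interval -0.46 to 0.44, adjusted p = 0.988), for Slc25a33 -0.07 (95% interval -0.43 to 0.29, adjusted p = 0.903) and for Slc25a20 0.08 (95% interval -0.13 to 0.29, adjusted p = 0.799).

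Among carriers of dicarboxylates and citrate, the dicarboxylate carrier Slc25a10 had the smallest F-test p of its class, with signals of 143, 200.0, 149, 144 and 185 in restricted and 134, 123, 129 and 136 in ad libitum hearts. The difference was 0.31 ± 0.13 (SE, adjusted p = 0.172), which did not pass although the groups did not overlap. The oxoglutarate carrier Slc25a11 had 0.05 (95% interval -0.10 to 0.21, adjusted p = 0.759) in the same comparison. The group means of the 25 tested carriers called in no comparison ran between 34.1 (Slc25a27) and 8668 (Slc25a4). They included the glutathione carriers Slc25a39 and Slc25a40, the glutamate carrier Slc25a22, the glycine carrier Slc25a38, the branched-chain amino acid carrier Slc25a44, the citrate carrier Slc25a1, the basic amino acid carrier Slc25a29, the folate and FAD carrier Slc25a32, the ATP-magnesium and phosphate carriers Slc25a23 and Slc25a24, the uncoupling protein relatives Slc25a27 and Slc25a30, Slc25a46 of the outer membrane, and Slc25a35, Slc25a45 and Slc25a53. Slc25a39 had 0.28 (95% interval 0.08 to 0.49, adjusted p = 0.0563) in leptin over restricted hearts.

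The 8 carriers under the filter were Ucp1, Slc25a2, Slc25a14, Slc25a18, Slc25a31, Slc25a41, Slc25a48 and Slc25a54, with group means between 2.61 and 31.7, and they were not tested. Slc25a31 is the adenine nucleotide translocator of testis. Ucp1 had signals of 4.76, 4.78, 1.37, 3.59 and 3.67 on the 5 leptin treated arrays, 5.00, 8.21, 49.9, 1.53 and 1.42 on the 5 restricted arrays, 1.82, 4.64, 3.32 and 3.14 on the 4 ad libitum arrays and 4.42, 2.44, 5.27 and 1.59 on the 4 wild type arrays. Only restricted replicate 3 stood out. On the same array Adipoq, the fat cell hormone adiponectin, had a signal of 56.3, while its other signals in the restricted group were 0.644 to 26.4. Restricted replicates 2 and 3, the arrays with the most atrial transcript, had the highest Ucp1 and Adipoq signals of that group. The adipocyte markers Cidea and Cox8b were not high on replicate 3. Both had strong signals in all 4 groups, with group means of 416 to 758 and 5338 to 6287. They may therefore not register a small amount of fat tissue. Cidea had 746, with 616 to 816 on the other restricted arrays, and Cox8b had 5081, with 5309 to 6646. The part of fat tissue in the Ucp1 signal was not tested.

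Genes that work beside the carriers were read from lists named for their roles. Of 20 tested genes that respond to PPAR-alpha, 10 were higher and 0 lower in restricted than in ad libitum hearts (median 0.32, against -0.0038 for all genes tested), where 3.53% of all genes tested were higher and 4.42% lower. In leptin treated over restricted hearts, 0 of the 20 were higher and 11 lower (median -0.28, against -0.01 for all genes tested), where 10.4% of all genes tested were higher and 7.5% lower. The genes of smallest p in restricted over ad libitum hearts were Angptl4, a lipoprotein lipase inhibitor (2.47), the acyl-CoA thioesterases Acot1 (3.99-fold higher) and Acot2 (0.59), and Mlycd, which degrades malonyl-CoA (0.58). Of 7 tested genes of the carnitine palmitoyl shuttle, which makes the substrate of Slc25a20, Mlycd and the outer membrane enzyme Cpt1a (0.68) were higher. Slc22a5, which takes carnitine into the cell (0.28), and Acacb, which makes malonyl-CoA (0.29), did not pass. Mlycd, Cpt1a, Cpt2 and Acsl1 stand in both lists, so the shuttle list adds no call in this comparison that the PPAR-alpha list lacks. That fatty acid genes of these hearts differ with restriction was known when the lists were made.

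In the other 6 lists together, 3 of 54 entries (5.56%) were called in this comparison, a share near the 7.95% of all genes tested. In restricted over ad libitum hearts, 1 of 7 pyruvate, sideroflexin and related carriers was lower (Mtch1, -0.37), with Sfxn3 (-0.48), Mpc1 (0.09) and Mtch2 (0.04) not called. Of 7 genes of mitochondrial calcium uptake 1 was higher (Micu3, 0.66), and Mcur1 (0.16), Micu2 (0.17) and Letm1 (-0.26) were not called. None of 4 enzymes of the malate-aspartate shuttle passed, with values of 0.07 (Mdh2) to 0.18 (Got2), among them Got1 (0.10) and Mdh1 (0.09). None of 15 ATP synthase subunits was called (median 0.11), such as Atpif1 (0.28), an inhibitor of the enzyme, Atp5b (0.12), Atp5l (0.11) and Atp5g2 (0.12). The same held for 13 genes of anion channels and protein import (median 0.03), among them Tomm20 (0.25), Timm17a (0.16), Vdac2 (0.10) and Timm23 (0.10). Of 8 genes that use or supply the iron of the mitoferrins, Iscu, the scaffold of iron-sulfur clusters, was higher (0.36, adjusted p = 0.0124), as was Slc25a28. The transferrin receptor Tfrc (-0.81), Alas2 (-1.14) and Hmox1 (0.35), which breaks down heme, did not pass.

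Markers of non-muscle cells differed in the same comparisons that gave most carrier calls. In restricted over ad libitum hearts, 5 of 8 fibroblast, 2 of 8 endothelial and 2 of 7 macrophage markers were lower and none of these was higher, where 4.42% of all genes tested were lower. The fibroblast list was split. Mean signals in restricted and ad libitum hearts were 65.8 and 217 for Col1a1, 194 and 368 for Col1a2 and 137 and 818 for Col3a1. For Lum they were 268 and 551, and for Postn 158 and 301. For Dcn they were 3333 and 2878, for Pdgfra 177 and 213, and for Tcf21 152 and 156. In leptin over restricted hearts, 5 fibroblast, 3 endothelial and 6 macrophage markers were higher and none of these was lower, where 10.4% of all genes tested were higher. In restricted over wild type hearts 5 fibroblast and 5 macrophage markers were lower, where 8.2% of all genes tested were. Of 4 tested adipocyte markers 1 went the other way, the lipid droplet protein Cidea, at 0.85 ± 0.10 (SE, adjusted p = 7.19e-05) in restricted over ad libitum, -0.71 ± 0.09 (SE, adjusted p = 8.29e-05) in leptin over restricted and 0.82 in restricted over wild type hearts. The summed fibroblast signal was 3937 to 5175 in restricted and 5124 to 5871 in ad libitum hearts, and the summed ventricular cardiomyocyte signal was 77810 to 102900 in restricted and 74910 to 88340 in ad libitum hearts. The part of these markers in the carrier results was not tested. Without restricted replicates 2 and 3, 4 carriers were called in restricted over ad libitum hearts and 9 in leptin over restricted hearts. Fewer arrays were fitted here, and the share of all genes called is not given, so these counts cannot be set against it. Ucp3, Slc25a20, Slc25a26 and Slc25a28 kept their calls in both comparisons in this setting.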

How the data were processed

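Signal intensities on a linear scale, 1 for each probe set of each array, were deposited by the authors, whose processing notes name MAS5. Its settings were not stated in the labels. The 2% trimmed mean was 100.001 on every array, so differences in total RNA were scaled out. Of 45101 probe sets, 34945 had 1 symbol in the platform annotation, 932 had several and 9160 had none listed (64 were controls). Each gene took its probe set of highest mean. Of the 46 carriers 24 had several sets, and all 46 matched RefSeq by Entrez number.

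Values were log2(signal + 5.13), the 20th percentile of all signals, which understates changes of dim genes. Genes under the 40th percentile of gene means (5.18) were not tested. One limma 3.58.1 model (R 4.3.3) with 4 groups over 18 arrays gave 6 contrasts and an F-test, two-sided, with eBayes. Errors are SE of the fit. The number of arrays limits the precision, and p-values measure only the spread between these samples, which may be technical, since the labels do not say that each is from a separate mouse. The script was tested on simulated data. Alternatives covered the pseudocount, filter, quantile normalization, probe sets, arrays fitted, the replicate block, the atrial level, variance trend, array weights and leaving out arrays. Named carriers are those called anywhere, the 4 of smallest p in each comparison, the 1 of smallest F-test p in each role class, and Ucp1 and Ucp3. Values of Slc25a3, Slc25a4, Slc25a11 and Slc25a39 were chosen for the text after they were seen. For each pathway list up to 4 genes of smallest p in restricted over ad libitum hearts are named. Members and lists were chosen with earlier results of these data known.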

Additional observations from a re-analysis of the deposited data

Results flagged for a closer look

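A single array lay far from the rest of its group in 4 of 80 groups of signals examined for the named carriers, and chance alone flags about 1 in 20. Slc25a10 had a signal of 185 in leptin replicate 5, with 120 to 135 in the other leptin treated hearts. Slc25a16 had 162 in restricted replicate 4, with 237 to 258 in the others of that group. Slc25a47 had 78.6 in ad libitum replicate 1, with 55.3 to 56.7 in the others. Ucp1 had 49.9 in restricted replicate 3, with 1.42 to 8.21 in the others, under the signal filter.

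In limma's test of leptin over restricted hearts, already given above, 12 of 38 carriers (31.6%) were called, where 17.9% of all genes tested were. The same test compares the responses to leptin and to calorie restriction, each against ad libitum hearts. Of the 12, Slc25a12, Slc25a13, Slc25a16, Slc25a17, Slc25a25 and Slc25a42 were called against ad libitum hearts with neither treatment. The log2 differences of leptin over restricted hearts follow. Signal was lower with leptin for Ucp3 (-1.11), Slc25a42 (-0.79), Slc25a28 (-0.67), Slc25a25 (-0.66), Slc25a17 (-0.59), Slc25a34 (-0.53), Slc25a16 (-0.51), Slc25a20 (-0.45) and Slc25a12 (-0.37). Signal was higher with leptin for Slc25a33 (0.74), Slc25a26 (0.70) and Slc25a13 (0.42).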

How the results depend on the processing

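No called carrier changed sign, and 20 of the 30 single calls held in all 13 settings tried and whichever array was left out, among them all 3 calls each of Ucp3, Slc25a20, Slc25a26 and Slc25a28. The number of carriers called in ad libitum over wild type hearts (1) was 0 without a signal filter, with the replicate block, without restricted replicates 2 and 3 and with the atrial covariate. In leptin over ad libitum hearts (2 called) it was 0 without a filter, with the replicate block and in a fit of only these groups, 1 with a filter over probe sets (added after seeing the data), without restricted replicates 2 and 3 and with the atrial covariate, and 4 after quantile normalization. The cause was not tested. Leaving out 1 array at a time gave 0 to 1 carriers in ad libitum over wild type, 0 to 2 in leptin over ad libitum, 5 to 6 in restricted over ad libitum, 10 to 14 in leptin over restricted, 0 to 0 in leptin over wild type, 9 to 11 in restricted over wild type hearts and 10 to 12 by the F-test. The shares of all genes called in these settings and leave-outs are not given, so the carrier counts cannot be set against them. Same-numbered arrays deviated from their group means with correlations of -0.20 to 0.444, over 0.1 in 2 of 25 pairs. The highest was that of ad libitum and wild type replicate 4. Differently numbered arrays were not compared, so these values cannot tell whether replicate numbers pair the samples. Besides the losses named above, calls were lost without restricted replicates 2 and 3 by Slc25a13 (against wild type) and by Slc25a16, Slc25a17 and Slc25a34 (leptin over restricted). Without a filter they were lost by Slc25a13 and Slc25a16, with the replicate block by Slc25a13, and with only the groups compared or the atrial covariate by Slc25a16. The leptin over ad libitum call of Slc25a37 was lost in 6 of the 13 settings and that of Slc25a33 in 3, and the ad libitum over wild type call of Slc25a33 in 4. The 8 carriers under the signal filter were too dim for a statement.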
